A study of Mus musculus with 12 samples.

Results

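Cholesterol is built from acetyl-CoA in a fixed order of steps, and 31 genes that encode enzymes or electron donors of this pathway and of its isoprenoid side branches are described here. They were chosen by gene symbol from a deposited table of 27912 genes, each symbol matched 1 row, and the rule used no measured value. The comparison was between livers of 3 CCR1 knockout mice (CCR1-KO replicates 65, 66 and 67) and livers of 3 wild-type C57BL/6 mice (WT replicates 62, 63 and 64). All were male, were 8 weeks old at the start, and ate a high-fat, high-cholesterol diet with cholate (the CL diet) for 12 weeks. CCR1 is a chemokine receptor of leukocytes. The labels state neither which part of Ccr1 was removed nor whether the WT mice were littermates. The series also holds 3 CCR1-LKO libraries and a second set of 3 WT libraries, also on the CL diet, which were not analysed here.

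In the mevalonate steps, acetyl-CoA units are joined and reduced to mevalonate, phosphorylated, and turned into the isoprene units that make farnesyl diphosphate. Farnesyl diphosphate is the branch point. Squalene synthase commits it to sterols, while other enzymes use it for geranylgeranyl diphosphate, dolichol, the tail of ubiquinone and the lipid anchors of proteins. The liver is a major site of cholesterol synthesis. The transcription factor SREBP-2, encoded by Srebf2, drives many genes of the sterol pathway when membrane sterol is low, and dietary cholesterol is known to lower their transcripts.

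The libraries held between 74699391 and 79154085 reads assigned to genes. As a check of the labels, CCR1-KO libraries 65, 66 and 67 carried 11, 4 and 14 Ccr1 reads, against 100, 23 and 123 in WT libraries 62, 63 and 64. The log2 fold change was -2.72 ± 0.76 (SE, adjusted p = 0.075 by edgeR's quasi-likelihood test), which missed the threshold although the groups did not overlap. Hepatocyte markers dominated all 6 libraries, with sums over 10 genes of 85051 to 106143 CPM (read counts relative to the scaled library total) in CCR1-KO and 79911 to 96982 CPM in WT. Of these 10, Cps1, Ass1, Tat and Serpina1c were higher. Of 8 stellate cell markers 5 were lower, with sums of 187 to 214 CPM in CCR1-KO and 375 to 787 CPM in WT. The top of the WT range was WT replicate 64, with 161 CPM of Col1a1 and 313 CPM of Col3a1. WT replicates 62 and 63 had 27.7 and 45.9 CPM of Col1a1 and 89.7 and 111 CPM of Col3a1. Of 6 bile duct markers, Spp1 was lower and the other 5 did not pass. The sums over the 6 were 42.2 to 49.1 CPM in CCR1-KO and 118 to 190.0 CPM in WT. Spp1 made up most of these sums, at a mean of 41.8 CPM in CCR1-KO and 142 CPM in WT, so they describe mainly that gene. Of 8 macrophage, 6 endothelial and 6 T and B cell markers 0 passed by edgeR (3 at an unadjusted p under 0.05), and no marker of these lists was at 0 in all 6 libraries. The part of these markers in the results below was not tested. In whole liver, fewer cells of a type and less RNA per cell cannot be told apart. Major urinary protein genes, named Mup, took 3.36%, 12.2% and 15.8% of the reads of CCR1-KO replicates 65, 66 and 67, against 0.927% to 1.05% in WT. The scaling factors (TMM) were 0.779 to 1.06 in CCR1-KO and 1.06 to 1.17 in WT, and signs that depend on them are given below.

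Transcripts for the mevalonate steps were lower in CCR1-KO livers throughout, those for the squalene and late sterol steps were lower in part, and 0 of 10 side-branch genes passed the test. Of the 31 genes, all tested, 14 fell at an adjusted p under 0.05 by edgeR's quasi-likelihood test. That is against 3.61% of the 17729 genes tested that were lower. The 14 were all 7 mevalonate genes, 2 of 3 squalene genes, and 5 of 11 late sterol genes including 1 electron donor. No member was higher by edgeR, against 2.83% of all genes. At an unadjusted p under 0.05, 16 were lower and 1, Por, was higher, against 13.2% lower and 11.3% higher of all genes. DESeq2 called 15 lower and 1 higher, again Por, against 8.73% lower and 7.55% higher of the 15651 genes with an adjusted p. The median log2 fold change was -0.59 over the 31 members and 0.0017 over all genes tested. By step group, the median was -2.11 for the mevalonate, -1.30 for the squalene, -0.59 for the late sterol and 0.02 for the side-branch genes. The groups did not overlap for 16 of the 31 genes, 15 of them lower, where 32.6% of all genes did not overlap and 17.4% were lower without overlap. Together the 31 genes took 0.157% to 0.181% of the reads in CCR1-KO and 0.246% to 0.346% in WT, with no scaling by TMM. As sums of CPM, which are scaled by TMM, they had 1480 to 2328 in CCR1-KO and 2109 to 3256 in WT. On that scale the groups overlapped. The count of 14 depended on which libraries were included. Without CCR1-KO replicate 65 it was 13, where 7.67% of all genes tested were lower. It was 3 without CCR1-KO replicate 66 (0.996% of all genes) and 8 without CCR1-KO replicate 67 (1.19%). It was 2 without WT replicate 62 (0.655%), 2 without WT replicate 63 (0.361%) and 8 without WT replicate 64 (0.579%). The share of all genes called lower was also below 3.61% in the last 5 of these fits. All 14 kept a lower value in every one of these fits.

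**Figure D1:**
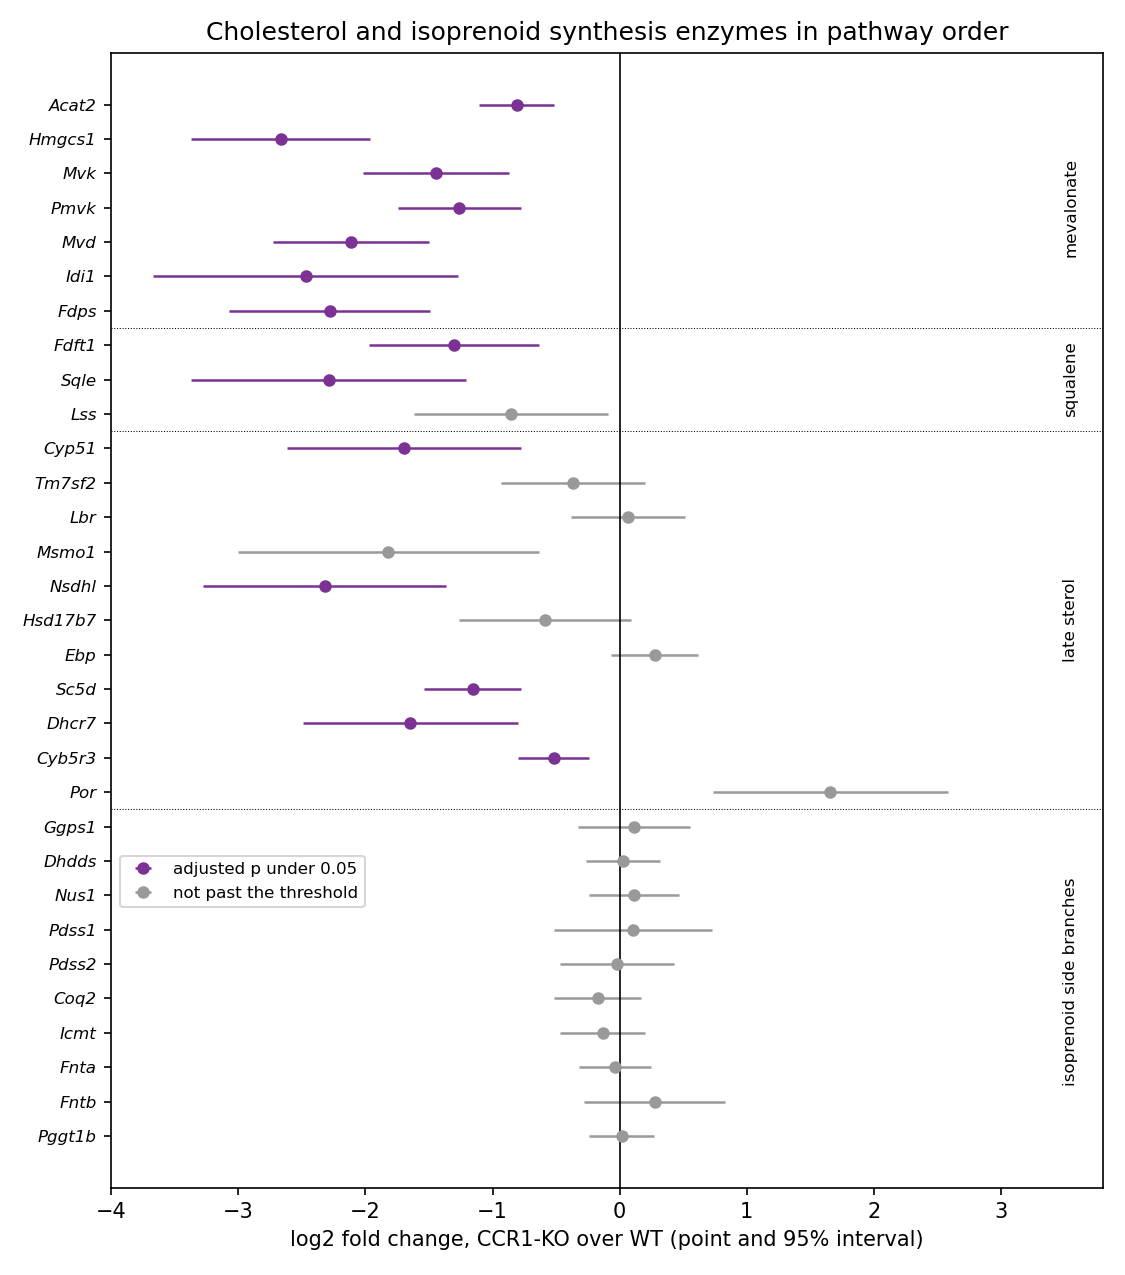
Log2 fold change of CCR1-KO over WT for the 31 genes, from top to bottom in pathway order, as fitted value and 95% interval (n = 3 libraries each). Purple marks an adjusted p under 0.05. The 7 mevalonate genes lie between -2.67 and -0.81, and the 10 side-branch genes lie between -0.17 and 0.27.

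Promoter sequences of 25 of the 31 genes were found in a RefSeq table (GRCm38.p6). Sqle, Fnta, Cyb5r3, Pggt1b, Fdft1 and Fdps had no entry. The 250 bases before each start were searched on both strands for TCACNCCAC, a sterol regulatory element type, CCAAT, the box bound by NF-Y, and GGGCGG, the box bound by Sp factors. These factors are known partners of SREBP at sterol genes. The promoters of 4 genes that fell, and that of Pdss1, which did not pass, are shown as examples. All matches are in capitals, and each is read 5′ to 3′ on the gene's strand. They do not stand for the called and uncalled genes as groups, and Por, which did not pass, held 4 GGGCGG matches.
Hmgcs1, chr13:119690101-119690350, plus strand: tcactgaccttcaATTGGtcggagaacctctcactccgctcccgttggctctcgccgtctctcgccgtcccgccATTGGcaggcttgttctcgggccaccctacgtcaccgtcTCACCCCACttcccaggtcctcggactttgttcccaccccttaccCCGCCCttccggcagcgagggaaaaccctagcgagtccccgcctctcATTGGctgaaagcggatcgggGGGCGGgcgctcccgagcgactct
Mvk, chr5:114444019-114444268, plus strand: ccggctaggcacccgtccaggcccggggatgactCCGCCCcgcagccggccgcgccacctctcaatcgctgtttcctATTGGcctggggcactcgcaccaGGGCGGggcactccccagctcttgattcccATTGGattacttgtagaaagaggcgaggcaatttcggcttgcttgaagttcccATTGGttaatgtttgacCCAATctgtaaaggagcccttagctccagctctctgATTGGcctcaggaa
Mvd, chr8:122443423-122443672, minus strand: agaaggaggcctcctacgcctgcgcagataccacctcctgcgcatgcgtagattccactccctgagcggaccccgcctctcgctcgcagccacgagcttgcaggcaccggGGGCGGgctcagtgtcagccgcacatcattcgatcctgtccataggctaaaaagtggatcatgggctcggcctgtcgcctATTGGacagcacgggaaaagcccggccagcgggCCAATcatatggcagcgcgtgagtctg
Nsdhl, chrX:72918271-72918520, plus strand: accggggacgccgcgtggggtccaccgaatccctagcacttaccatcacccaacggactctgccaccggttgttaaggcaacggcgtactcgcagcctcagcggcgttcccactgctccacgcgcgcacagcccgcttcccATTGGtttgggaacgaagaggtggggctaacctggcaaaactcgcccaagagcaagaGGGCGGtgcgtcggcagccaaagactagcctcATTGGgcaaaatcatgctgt
Pdss1, chr2:22895272-22895521, plus strand: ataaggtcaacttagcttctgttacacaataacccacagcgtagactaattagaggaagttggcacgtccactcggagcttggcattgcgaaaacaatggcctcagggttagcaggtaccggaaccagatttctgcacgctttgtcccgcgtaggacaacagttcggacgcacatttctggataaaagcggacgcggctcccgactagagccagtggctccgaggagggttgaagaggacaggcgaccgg

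In the Hmgcs1 promoter, TCACNCCAC began 137 bases before the start, and it was the one match of this motif among the 25 promoters (4.00%, against 1.05% of all 32851 promoters in the table). That promoter also held 3 CCAAT and 2 GGGCGG matches, counting both strands. The Mvk promoter held 5 CCAAT matches and 2 of GGGCGG, Mvd and Nsdhl held 2 and 1, and Pdss1 held none of the 3 motifs. CCAAT was present in 17 of the 25 promoters (68.0%, against 33.8% of all promoters) and GGGCGG in 20 of 25 (against 32.7%). Of the 10 promoters of genes that fell, 8 held CCAAT and 9 held GGGCGG. Of the 15 others, 9 and 11 did. At least 1 of the 3 motifs was present in all 10 and in 13 of the 15. By branch, CCAAT was present in 14 of 17 promoters of the sterol pathway and in 3 of 8 of the side branches. GGGCGG was present in 16 of 17 and in 4 of 8. The median GC content was 62% in these 25 windows and 52.4% in all windows. The part of base composition in these shares was not tested. An 8-letter form, CACNCCAC, chosen after seeing the data, was present in 3 of 25 promoters (12%, against 5.29%). The RefSeq starts used for Por and Fntb lie 19112 and 71878 bases from the starts in the gene table. A match describes letters and not a bound site, and no match says only that those letters are not in the window.

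Every mevalonate gene fell, by the most at Hmgcs1 and by the least at Acat2. Acat2, the cytosolic thiolase that joins the first acetyl-CoA units (chromosome 17, 12942890 to 12960747, GRCm38), had 67.4, 62.7 and 56.0 CPM in CCR1-KO replicates 65, 66 and 67, against 109.7, 118 and 98.4 CPM in WT replicates 62, 63 and 64. The 3 values of each group lay close together, and the groups did not overlap (log2 fold change -0.81 ± 0.13 SE, adjusted p = 0.017). Acat2 passed in 2 of the 6 fits with a library left out. Acat3, its close paralog next to it on chromosome 17, did not pass (log2 fold change -0.34 ± 0.13, adjusted p = 0.17). How the authors assigned reads shared by these paralogs is not given, so the split between them is uncertain. Hmgcs1 makes HMG-CoA for cholesterol in the cytosol (chromosome 13, 119690379 to 119708260). It had 77.8, 47.6 and 61.0 CPM in CCR1-KO, against 480.3, 464 and 239.5 CPM in WT. The CCR1-KO level was 15.8% of the WT level by the fit (log2 fold change -2.67 ± 0.30, adjusted p = 0.0085). Even the lowest WT library was far above the highest CCR1-KO library. Hmgcs1 starts 0.281 Mb from Nnt, a gene known to differ between C57BL/6 substrains. Genotype and genetic background cannot be told apart here. Within 5 Mb of Nnt, with Nnt itself left out, 31 genes were tested, and 2, Hmgcs1 among them, were lower and 0 were higher by edgeR. Called in either direction were 6.45% there and 6.44% of all genes, with 3.61% of all genes lower and 2.83% higher. The part of genetic background in the Hmgcs1 difference was not tested.

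The next genes encode the kinases and the decarboxylase that turn mevalonate into isopentenyl diphosphate. Mvk, the mevalonate kinase (chromosome 5, 114444269 to 114460591), had 3.70, 5.73 and 6.12 CPM in CCR1-KO, against 16.3, 15.3 and 10.6 CPM in WT (log2 fold change -1.44 ± 0.25, adjusted p = 0.020). Pmvk, which adds the next phosphate (chromosome 3, 89454541 to 89469013), had 10.9, 10.5 and 11.7 CPM in CCR1-KO, against 31.6, 29.7 and 18.1 CPM in WT (log2 fold change -1.26 ± 0.21, adjusted p = 0.019). For both, WT replicate 64 was the lowest of its group and still above every CCR1-KO library. Mvd, the decarboxylase (chromosome 8, 122433601 to 122443422), had 2.68, 3.42 and 4.12 CPM in CCR1-KO, against 15.5, 18.5 and 10.2 CPM in WT. Its level in CCR1-KO was 23.1% of that in WT (log2 fold change -2.11 ± 0.27, adjusted p = 0.0098). Of the 14 genes that fell, 2, Mvd and Hmgcs1, passed in all 6 fits with a library left out, while Mvk passed in 3 and Pmvk in 2.

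Idi1 and Fdps complete the mevalonate steps, and both fell. Idi1, the isomerase of the isoprene units (chromosome 13, 8885501 to 8892451), had 7.27, 20.2 and 25.9 CPM in CCR1-KO, against 130, 118 and 47.6 CPM in WT (log2 fold change -2.47 ± 0.52, adjusted p = 0.035). Its spread was the widest of the 7 by SE. Idi2, a paralog, had 6 reads in CCR1-KO replicate 66 and none in the other libraries. Fdps, which makes farnesyl diphosphate (chromosome 3, 89093588 to 89101959), had 21.5, 29.9 and 31.2 CPM in CCR1-KO, against 158, 174 and 68.9 CPM in WT (log2 fold change -2.28 ± 0.34, adjusted p = 0.015). In both genes the lowest WT library was replicate 64, at less than the other WT libraries by a wide margin. Idi1 passed in 1 and Fdps in 3 of the 6 fits with a library left out.

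**Figure D2:**
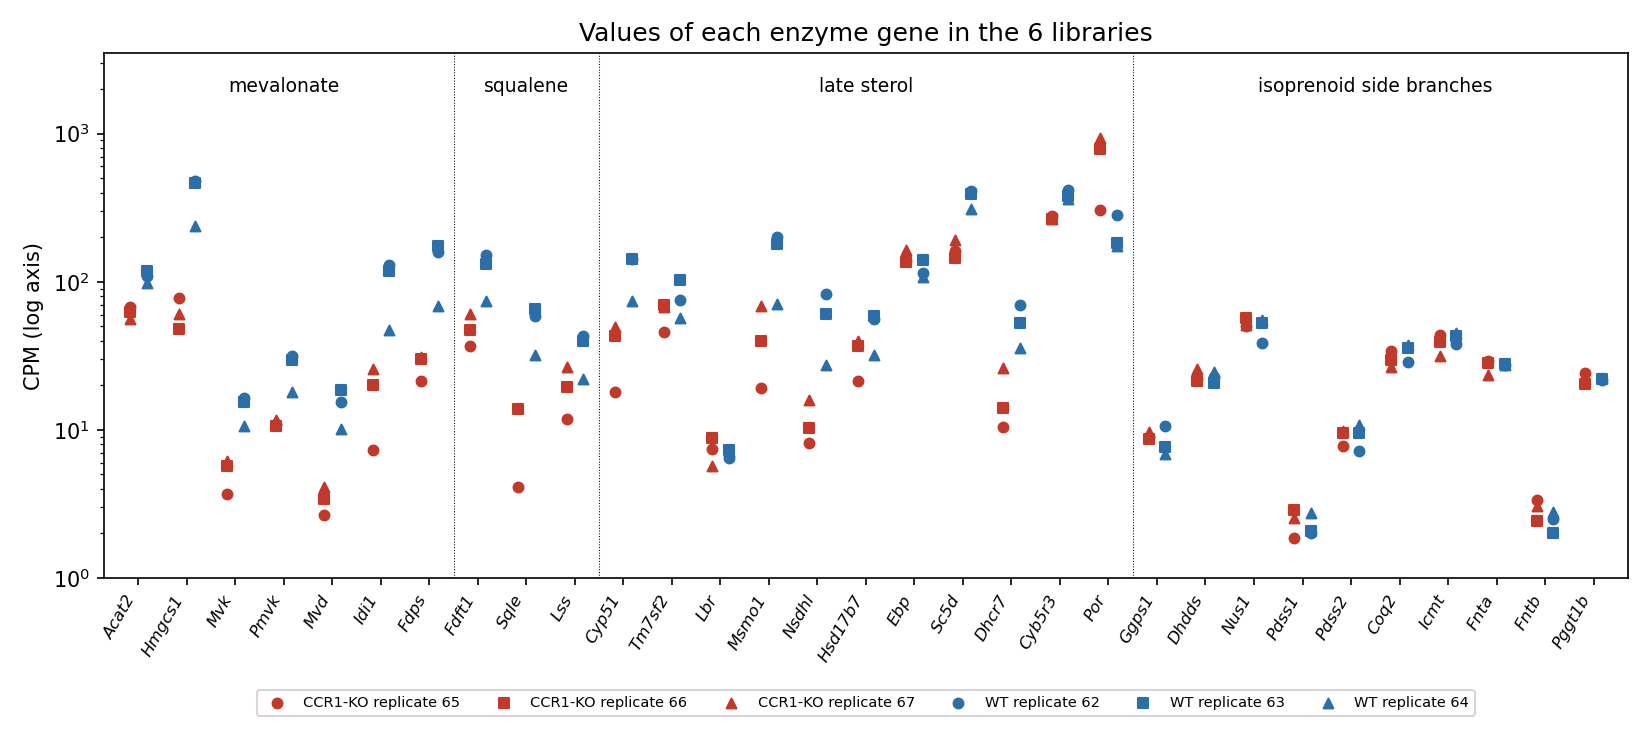
CPM of each of the 31 genes in the 6 libraries on a log axis, in pathway order, with CCR1-KO in red at the left and WT in blue at the right of each gene. Among the mevalonate genes no red point reaches a blue one, Por is the one gene of the late sterol group whose red points all lie above the blue ones, and the side-branch points of both groups mix.

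The squalene steps fell unevenly. Fdft1, squalene synthase (chromosome 14, 63145150 to 63179578), had 36.6, 47.5 and 60.9 CPM in CCR1-KO, against 153, 131 and 73.6 CPM in WT (log2 fold change -1.30 ± 0.29, adjusted p = 0.041). Fdft1 shares 774 bases with Ctsb on the other strand, a gene with 725% of its reads, and no source states if reads were counted by strand. Sqle, squalene epoxidase, which adds oxygen to squalene and is a known control point of the pathway (chromosome 15, 59315077 to 59331192), had 4.11, 13.8 and 14.0 CPM in CCR1-KO, against 58.4, 65.3 and 32.0 CPM in WT. Its CCR1-KO level was 20.4% of the WT level (log2 fold change -2.29 ± 0.47, adjusted p = 0.032). Lss, which closes the rings to lanosterol (chromosome 10, 76531588 to 76557138), had 11.9, 19.6 and 26.5 CPM in CCR1-KO, against 42.7, 39.7 and 22.1 CPM in WT. Here CCR1-KO replicate 67 lay above WT replicate 64, and the gene did not pass (log2 fold change -0.85 ± 0.33, adjusted p = 0.16). Lss passed in 4 of 10 alternative settings. Fdft1 and Sqle each passed in 1 of the 6 fits with a library left out.

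Among the late sterol enzymes, Cyp51, Nsdhl, Sc5d and Dhcr7 fell, and the enzymes between them did not pass. Cyp51, the P450 that removes a methyl group from lanosterol (chromosome 5, 4081145 to 4104746), had 18, 42.9 and 49.6 CPM in CCR1-KO, against 143, 143 and 73.7 CPM in WT (log2 fold change -1.70 ± 0.40, adjusted p = 0.048). Cyp51 shares 166 bases with Akap9 on the other strand, which had 35.9% of its reads. Nsdhl, the sterol dehydrogenase that removes carboxyl groups (chromosome X, 72918557 to 72958514), had 8.12, 10.4 and 15.9 CPM in CCR1-KO, against 83.3, 60.7 and 27.6 CPM in WT. The groups did not overlap (log2 fold change -2.32 ± 0.41, adjusted p = 0.023). In both genes replicate 64 was the lowest WT library. Sc5d, a sterol desaturase (chromosome 9, 42251595 to 42264256), had 161, 146 and 192 CPM in CCR1-KO, against 411, 390.2 and 309 CPM in WT (log2 fold change -1.15 ± 0.17, adjusted p = 0.013). Dhcr7, the dehydrocholesterol reductase that acts at the end of the pathway (chromosome 7, 143823145 to 143848410), had 10.5, 14.1 and 26.1 CPM in CCR1-KO, against 70.1, 52.9 and 35.5 CPM in WT (log2 fold change -1.65 ± 0.37, adjusted p = 0.041). Sc5d was the tighter of these, and it passed in 4 of the 6 fits with a library left out, Nsdhl in 3, Dhcr7 in 2 and Cyp51 in 1.

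Msmo1, the methylsterol monooxygenase, had 19.1, 39.8 and 68.6 CPM in CCR1-KO, against 199.7, 179.6 and 70.7 CPM in WT. The groups touched without overlapping, and the fitted difference missed the threshold (log2 fold change -1.82 ± 0.51, adjusted p = 0.078). It passed in 5 of 10 alternative settings. Tm7sf2 and Lbr both encode reductases for the step after Cyp51, and Lbr is also a structural protein of the nuclear envelope. Neither passed, with log2 fold changes of -0.37 ± 0.24 for Tm7sf2 (adjusted p = 0.40) and 0.06 ± 0.19 for Lbr (adjusted p = 0.87), and the libraries of the groups overlapped for both. Hsd17b7, the ketosteroid reductase of the pathway, also overlapped (log2 fold change -0.59 ± 0.29, adjusted p = 0.26). Ebp, which shifts a bond in the sterol ring, had 138, 136 and 164 CPM in CCR1-KO, against 114, 140.5 and 107 CPM in WT (log2 fold change 0.27 ± 0.15, adjusted p = 0.29). Its 95% interval ran from -0.07 to 0.62, and its sign turned with no scaling factors (-0.036).

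The electron donors Cyb5r3 and Por differed in direction. Cyb5r3, the reductase of cytochrome b5 that feeds Sc5d and Msmo1 (chromosome 15, 83153494 to 83172592), had 279, 264 and 265 CPM in CCR1-KO, against 419, 377 and 360.0 CPM in WT. This was a small and even decrease (log2 fold change -0.52 ± 0.12, adjusted p = 0.048), which passed in 1 of the 6 fits with a library left out. Por, the reductase that feeds Cyp51, Sqle and the drug-metabolizing P450 enzymes (chromosome 5, 135670033 to 135735326), had 303, 787 and 932 CPM in CCR1-KO, against 283, 183 and 173 CPM in WT. CCR1-KO replicates 66 and 67 were high, while CCR1-KO replicate 65 lay next to WT replicate 62. The fitted difference missed the threshold (log2 fold change 1.66 ± 0.40, 95% interval 0.73 to 2.59, adjusted p = 0.051). It passed without CCR1-KO replicate 65 (adjusted p = 0.0039) and in 3 of 10 alternative settings, and it was higher in all of them. CCR1-KO replicate 65 also had the smallest share of Mup reads in its group.

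The side-branch genes had fitted differences near 0. Nus1, which with Dhdds forms the enzyme that makes the dolichol chain, had 50.4, 56.5 and 51.0 CPM in CCR1-KO, against 38.4, 52.9 and 54.8 CPM in WT (adjusted p = 0.70). Coq2, which joins the isoprenoid tail to the ring of ubiquinone, had 33.9, 29.8 and 26.6 CPM in CCR1-KO, against 28.7, 35.5 and 37.6 CPM in WT (adjusted p = 0.51). In both, the CCR1-KO libraries overlapped the WT range. The other 8 had log2 fold changes between -0.13, for Icmt, and 0.27, for Fntb. They were Ggps1 (which extends farnesyl to geranylgeranyl diphosphate), Dhdds, Pdss1 and Pdss2 (the subunits that make the ubiquinone tail), Icmt (the methyltransferase of prenylated proteins), Fnta (the shared subunit of the farnesyl and geranylgeranyl transferases), and their partners Fntb and Pggt1b. The 95% intervals of the 10 genes together ran from -0.52 to 0.83, so a difference of up to 1.78-fold higher or to 0.698 of the WT level lies inside them. For all 10, groups overlapped, edgeR gave 0 calls at an unadjusted p under 0.05, and DESeq2 gave 0 calls at an adjusted p. Limma also gave 0 calls at an adjusted p, but its FPKM filter left out Pdss1. Their signs moved with the scaling: with no scaling factors the median of all genes was -0.30, and the positive values of Ggps1, Dhdds, Nus1, Pdss1, Fntb and Pggt1b turned negative. Counts of Ggps1, Pdss1 and Fntb are uncertain beyond their error, since Arid4b, Abi1 and Churc1, which overlap them, had 199%, 1458% and 825% of their reads.

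Among the genes that fell, WT replicate 64 was the lowest WT library in 14 of 14, while the highest was WT replicate 62 in 9 and WT replicate 63 in 5. In CCR1-KO, replicate 65 was the lowest in 9 of the 14 and replicate 67 the highest in 11, with levels ordered 65, 66, 67 from low to high in 9 of 14. Acat2, Hmgcs1 and Cyb5r3 were the exceptions at the top, with replicate 65 the highest of its group in these 3. Taken as the median deviation of log2 CPM from the mean of the 6 libraries, the mevalonate genes stood at -1.17, -0.89 and -0.55 in CCR1-KO replicates 65, 66 and 67, against 1.16, 1.42 and 0.34 in WT replicates 62, 63 and 64. The side-branch genes stood between -0.0091 and 0.07 in CCR1-KO and between -0.07 and 0.12 in WT by the same measure.

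**Figure D3:**
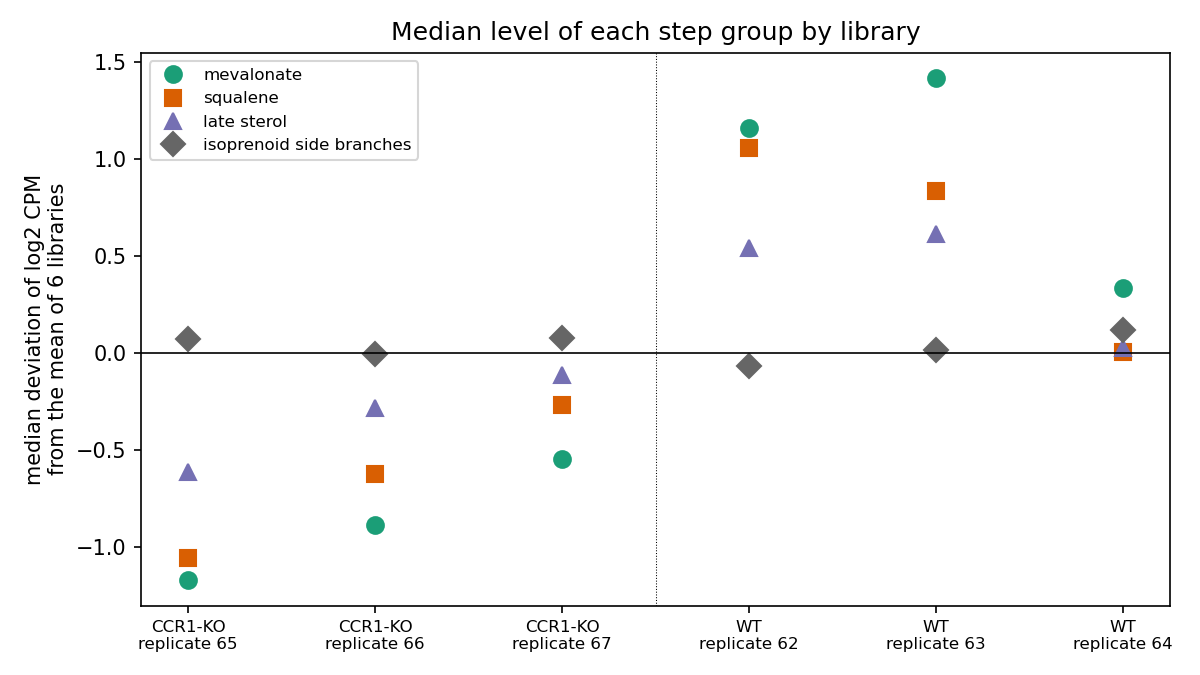
Median deviation of log2 CPM from the mean of the 6 libraries, for each step group in each library, with CCR1-KO at the left. The mevalonate medians lie between -1.17 and -0.55 in CCR1-KO and between 0.34 and 1.42 in WT, while the side-branch medians stay near 0 in all 6.

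Levels per gene length, as deposited FPKM (fragments scaled by transcript length and library size), gave the order of the genes within a library, which does not depend on scaling between libraries. Of the 31 genes, Por ranked at 1 in all 3 CCR1-KO libraries and at 4, 6 and 5 in WT replicates 62, 63 and 64. Hmgcs1 ranked at 6, 10 and 8 in CCR1-KO and at 1, 1 and 3 in WT. Fdps ranked at 15 in each CCR1-KO library and at 7, 7 and 9 in WT, and Nsdhl at 19, 20 and 20 in CCR1-KO and at 12, 13 and 16 in WT. So these mevalonate and late sterol genes moved down the order and Por moved up, in every library of the group. A rank also moves when other genes fall. In CCR1-KO replicate 65, Por had 72.6 FPKM, next to 68.3 FPKM in WT replicate 62. In CCR1-KO, Por averaged 131 ± 51.2 FPKM, followed by Cyb5r3 at 51.9 ± 9.61 and Ebp at 51.7 ± 5.31, which lie within each other's spread (SD, n = 3). In WT, Cyb5r3 at 91.0 ± 3.05, Hmgcs1 at 86.5 ± 26.9 and Sc5d at 77 ± 8.14 FPKM led and lay within the spread of Hmgcs1, followed by Por at 53.5 ± 12.8 and Ebp at 53.0 ± 7.75, which could not be told apart. The lowest in both groups were Fntb at 0.610 ± 0.168 FPKM in CCR1-KO and 0.620 ± 0.115 FPKM in WT, and Pdss1 at 0.463 ± 0.0666 FPKM in CCR1-KO and 0.540 ± 0.123 FPKM in WT.

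**Figure D4:**
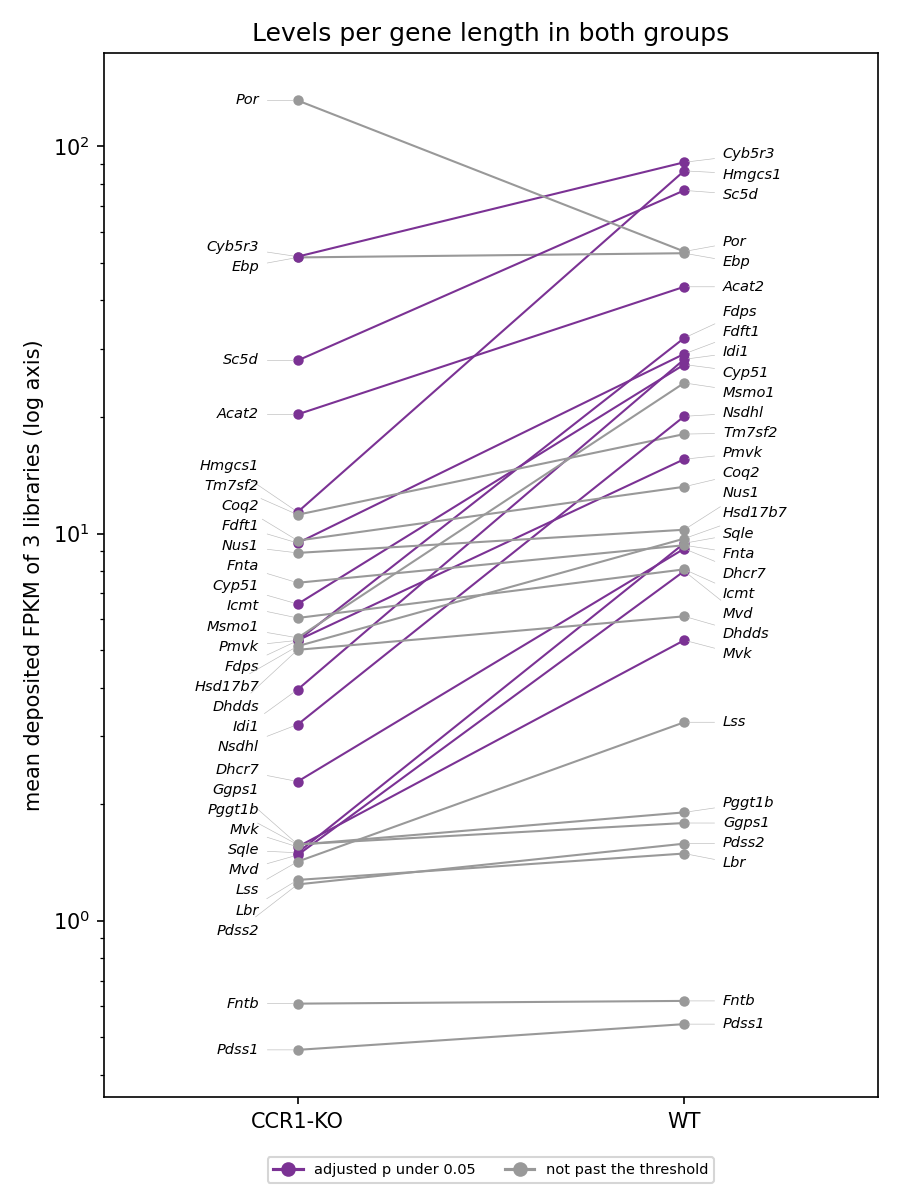
Mean deposited FPKM of each gene in CCR1-KO, at the left, and WT, at the right, on a log axis (n = 3 each), with lines joining the same gene. Purple lines mark an adjusted p under 0.05. Por is at the top of the CCR1-KO column at 131 FPKM, and Hmgcs1 stands at 11.4 FPKM in CCR1-KO and 86.5 FPKM in WT.

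Ratios of 7 gene pairs were also taken within each library. With 3 libraries against 3, the exact two-sided permutation test cannot go below p = 0.10, and p was adjusted over the 7 pairs. The log2 FPKM ratio of Fdps to Ggps1, the enzymes that make and extend farnesyl diphosphate, was 1.43, 1.96 and 1.87 in CCR1-KO, against 4.08, 4.67 and 3.49 in WT. It differed by -2.33 without overlap (exact p = 0.10, adjusted p = 0.14). Fdft1 to Ggps1, the sterol and geranylgeranyl users of farnesyl diphosphate, differed by -1.40, with 2.24, 2.67 and 2.86 in CCR1-KO against 4.06, 4.29 and 3.62 in WT (exact p = 0.10, adjusted p = 0.14). The ratio of Fdft1 to Fdps was higher in CCR1-KO, at 0.81, 0.70 and 1.00 against -0.02, -0.38 and 0.13 in WT. It differed by 0.93, with every CCR1-KO library above every WT library (exact p = 0.10, adjusted p = 0.14). Counts of Ggps1 and Fdft1 are uncertain because of the overlapping genes Arid4b and Ctsb named above. The ratios that use Ggps1 or Fdft1 share that limit. Sqle to Lss differed by -1.56 and Cyp51 to Por by -3.30, also without overlap (exact p = 0.10, adjusted p = 0.14 each). The Cyp51 to Por ratio was nearly constant in CCR1-KO, at -4.20, -4.33 and -4.37, and was -1.13, -0.50 and -1.37 in WT. The pairs Hmgcs1 to Fdps (difference -0.44, exact p = 0.40) and Tm7sf2 to Lbr (difference -0.40, exact p = 0.50) overlapped between the groups.

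Of 42 other genes of these pathways, 4 fell, against 3.61% of all genes, and 0 rose by edgeR. At an unadjusted p under 0.05, 6 were lower and 1 was higher, against 13.2% lower and 11.3% higher of all genes. DESeq2 called 5 lower and 1 higher, against 8.73% lower and 7.55% higher of all genes with an adjusted p. With 1 library left out, the sterol-sensing and the cytochrome b5 genes each had 0 lower in 5 of the 6 fits. The acetyl-CoA and ketone genes had 0 lower in 3 of the 6 and 1 lower in 2. Srebf2 was 1 of 7 sterol-sensing genes to fall, with 35.7, 37.0 and 31.4 CPM in CCR1-KO, against 64.8, 58.7 and 49.4 CPM in WT (log2 fold change -0.73 ± 0.14, adjusted p = 0.025). Insig1 and Cyb5a are named below after their values were seen. Insig1, which holds the SREBP complex in the endoplasmic reticulum and is itself sterol-regulated, did not pass (adjusted p = 0.30). On the acetyl-CoA and ketone side, 2 of 6 genes fell. Acss2 makes acetyl-CoA from acetate, and it had 61.0, 67 and 60.6 CPM in CCR1-KO, against 135, 122 and 89.0 CPM in WT (log2 fold change -0.88 ± 0.17, adjusted p = 0.027). Acly makes it from citrate (log2 fold change -0.66 ± 0.14, adjusted p = 0.037). Of 5 cytochrome b5 and reductase genes, Cyb5b, the outer mitochondrial form, fell (234, 181 and 198 CPM in CCR1-KO, against 388, 396 and 336 CPM in WT, adjusted p = 0.018). Cyb5a, the form of the endoplasmic reticulum, did not pass (adjusted p = 0.65). None of 10 ubiquinone assembly, 8 dolichol and 6 prenyl protein processing genes passed by edgeR. At an unadjusted p under 0.05, 1 ubiquinone and 1 dolichol gene were lower and 1 ubiquinone gene was higher. DESeq2 called 1 dolichol gene lower and 1 ubiquinone gene higher. Coq10b, a lipid-binding partner of ubiquinone and chosen after its values were seen, had 23.8, 72.0 and 79.9 CPM in CCR1-KO, against 17, 19.8 and 19.4 CPM in WT (adjusted p = 0.0502). As with Por, CCR1-KO replicate 65 lay near the WT libraries.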

How the data were processed

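Liver RNA was sequenced as poly(A)-selected libraries, per the labels' protocols. The authors deposited read counts and FPKM per gene. Reads were processed with cutadapt 1.9, HISAT2 2.2.1 and StringTie 2.1.6, per the submitters' processing notes, which list a human build although the identifiers are mouse; all 31 genes were found in GENCODE M21 (GRCm38), 27 with the same start, end and strand. No source states if reads were counted by strand. From the deposited counts, edgeR 4.0.16 (quasi-likelihood, TMM, R 4.3.3) tested 17729 of 27912 genes after filterByExpr (minimum count 10), with Benjamini-Hochberg adjustment over all of them and a threshold of 0.05. SE was the log2 fold change over the root of F. CPM are scaled by TMM. DESeq2 1.42.0 and limma 3.58.1 on log2(FPKM + 0.5) were alternatives. On a single data set simulated from these libraries, 200 of 14379 genes were changed. The share of false calls was above the threshold, with 19 false among 142 calls. Of simulated 2-fold changes 36% were called, and of 4-fold changes 87%. Calls with an adjusted p just under 0.05 are therefore less sure than that value says. The simulated shares depend on the fraction of genes changed, and other fractions were not tried. FPKM levels are as deposited, with no scaling between libraries added.

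The members and lists were chosen with earlier results of these data known. All 31 members are named. Values in every library are given for members past the threshold and for the 2 members of highest mean FPKM that did not pass in each step group. Msmo1 was added after its values were seen. Of other pathway genes, those past the threshold are named, at most 4 a list. Nothing in the labels says that the libraries of a group share an animal, and p-values measure only the spread between these libraries. A gene at 1 read has 0.0113 to 0.0167 CPM, and counts carry counting error beside the spread between libraries.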

Additional observations from a re-analysis of the deposited data

How the results depend on the processing

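No paired analysis was possible because the groups share no replicate numbers. Members lower were 9 by limma with no filter, and within 1.5 times the reported count in the other settings. Members higher, and late sterol members higher, were 1 by DESeq2, with no scaling and with Mup genes left out. Squalene members lower were 1 by edgeR and by limma with no filter, and late sterol members lower were 2 and 3. Other pathway genes lower were 1 by limma with no filter, and higher were 1 by DESeq2, with RLE and with Mup genes left out. Of these, dolichol genes lower were 1 by DESeq2 and by limma at 0.5 and 1, and limma with no filter gave 0 sterol-sensing, 1 acetyl-CoA and 0 cytochrome b5 genes lower. The members' median was -0.92 with no scaling and -0.89, -1.0, -0.81 and -0.84 by limma (pseudocounts 0.5, 0.1, 1, and 0.5 with no filter), where the median of all genes was -0.30 with no scaling and -0.23 by limma at 0.5. Of all calls, 43.9% were higher with TMM, 20.4% with no scaling and 17% by limma. With 1 library left out, members lower ran from 2 to 13 and higher from 0 to 1, mevalonate lower from 2 to 7, squalene lower from 0 to 1, late sterol lower from 0 to 5 and higher from 0 to 1, other genes lower from 0 to 7 and higher from 0 to 1 (sterol-sensing lower 0 to 2, acetyl-CoA lower 0 to 2, cytochrome b5 lower 0 to 1), and the median from -0.82 to -0.48. The cause was not tested. Uncalled genes near 0 changed sign. With no scaling, Lbr was -0.23, Ebp -0.036, Ggps1 -0.18, Dhdds -0.29, Nus1 -0.20, Pdss1 -0.23, Fntb -0.016 and Pggt1b -0.27. By limma at pseudocounts 0.5, 0.1 and 1, Lbr was -0.18, -0.24 and -0.14, Ebp -0.031 in each, Ggps1 -0.14, -0.17 and -0.11, Dhdds -0.26, -0.28 and -0.24, Nus1 -0.17, -0.18 and -0.17, Fntb -0.019, -0.034 and -0.012, and Pggt1b -0.23, -0.28 and -0.18. With no filter, limma at 0.5 gave Lbr -0.18, Ebp -0.031, Ggps1 -0.14, Dhdds -0.26, Nus1 -0.17, Pdss1 -0.11, Fntb -0.019 and Pggt1b -0.23. With upper-quartile scaling, Dhdds was -0.027 and Pggt1b -0.034. With 1 library left out, the ranges were Lbr -0.093 to 0.21, Ggps1 -0.0087 to 0.32, Dhdds -0.063 to 0.087, Nus1 -0.032 to 0.20, Pdss1 -0.040 to 0.26, Pdss2 -0.17 to 0.11, Fnta -0.099 to 0.053 and Pggt1b -0.051 to 0.070.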
